A study of Mus musculus with 9 samples.

Results

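The forkhead (Fox) transcription factors were examined across 3 tissues of the mouse embryo on expression arrays. The members were all probes whose gene symbol was Fox followed by a letter from a to s, a number and at most one further a or b. This gave 59 probes for 38 gene symbols, of 25697 probes and 18120 symbols on the array. A single probe stood for 28 of the genes, and *Foxj3* had the most, with 6.

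RNA came from mid-gestation CD-1 embryos at E10.5, for which the labels name no mutant allele and no treatment. The 3 groups were otic vesicles (OV), periotic tissue, and whole embryos from which the otic region had been removed (embryo-minus-otic), each with 3 pools on an array of its own. The OV is the epithelial sac that forms the inner ear. Per the study's methods, the periotic pools held mesenchyme and hindbrain, and the pools came from separate litters. The labels do not tie a replicate number to a litter, so the tests measure the spread between these pools. Every sample was a mixture of cell types, and fewer cells of a type cannot be told apart from less RNA per cell.

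Forkhead factors bind DNA through a winged-helix domain of the same fold in all members, and most recognise a short core motif. They are named by letter subfamilies that differ outside this domain. Several are pioneer factors that bind closed chromatin, and many mark a germ layer or region: Foxa genes the endoderm and floor plate, Foxc and Foxf genes the mesoderm and mesenchyme, and Foxi genes the ectoderm of the pharyngeal and otic region. Others, such as the Foxo and Foxm genes, act in most tissues on metabolism and the cell cycle.

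Values are log2 intensities after quantile normalization over the 9 arrays. An array counted as above background for a probe at a detection p-value under 0.01, and on this scale the dimmest probes above background lay at 6.138 to 6.243. The *q*-value is the Benjamini-Hochberg adjusted p of limma over all 25697 probes, and a probe was called at *q* under 0.05. Against a group with no array above background, only a minimum fold Δ is given ("at least"). For it, each dim array's value was raised, where lower, to the dimmest value above background on that array before the group means were compared. This minimum compares means only and leaves out the spread between arrays. It is not a lower confidence limit, and the 95% interval of a fitted difference can include smaller changes. Levels are compared between groups for 1 probe and never between probes. Summed intensities add the normalized signals of all probes of a list, background included. A low sum can therefore be mostly background, and ratios of sums do not measure tissue content. The 3 comparisons share their arrays and are not independent of each other.

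Tissue labels were checked against marker lists. Of 19 otic marker probes (12 of 14 genes), 12 were higher in OV than in embryo-minus-otic tissue and 13 higher than in periotic tissue, with none lower. Their summed intensity was 8390 to 10000 in OV, 1470 to 1640 in periotic tissue and 2420 to 2560 in embryo-minus-otic tissue. Of 16 hindbrain and neural tube probes, 9 were higher in periotic than in embryo-minus-otic tissue and none lower. Between 43.9% and 47.3% of all probes were above background on each array. OV replicate 1 stood apart in heart muscle genes, with 6 of 9 such probes above background and a summed intensity of 1050, against 489 and 493 in the other OV pools and 10900 to 12600 in embryo-minus-otic tissue.

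Most forkhead probes were not above background in the OV. Forkhead probes were above background on all 3 arrays in 14 of 59 cases in OV (23.7%, against 42.1% of all probes), in 18 in periotic tissue (30.5%, against 42.5%) and in 20 in embryo-minus-otic tissue (33.9%, against 41.1%). They were above background on no array in 41 cases in OV (69.5%, against 51.3% of all probes), in 33 in periotic tissue (55.9%, against 50.5%) and in 32 in embryo-minus-otic tissue (54.2%, against 51.4%). The number above background was 15, 17 and 15 on the OV arrays, 21, 22 and 22 on the periotic arrays, and 24, 23 and 23 on the embryo-minus-otic arrays.

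For 7 forkhead genes a probe was above background on all 3 embryo-minus-otic arrays and on no OV array: *Foxa1*, *Foxb1*, *Foxe1*, *Foxf1a*, *Foxf2*, *Foxi2* and *Foxq1*. Their 7 probes were 11.9% of the family, against 0.957% of all probes. For 5 of them (8.47%, against 0.385% of all probes) all 3 periotic arrays were above background too. No forkhead probe passed on all 3 OV arrays while passing on no other array, a pattern that 0.564% of all probes had.

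Across the family, 15 probes of 14 genes (25.4%, against 16.3% of all probes) were called in at least 1 comparison. Against embryo-minus-otic tissue, 14 forkhead probes of 14 genes were called (23.7%, against 11.4% of all probes). OV was lower for 12 of them (20.3%, against 5.51%) and higher for 2 (3.39%, against 5.89%). A change of at least 1.5-fold was found for 10 of the 14 (16.9%, against 4.9%). The OV and embryo-minus-otic arrays did not overlap for 20 probes (33.9%, against 24.9%). *Foxo1* was among those higher in OV.

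OV and periotic tissue differed for 12 probes of 11 genes (20.3%, against 10.2% of all probes). OV was lower for 10 of these (16.9%, against 5.15%) and higher for 2 (3.39%, against 5.07%), and the change was at least 1.5-fold for 8 (13.6%, against 4.97%). The arrays did not overlap for 21 probes (35.6%, against 25.1%). *Foxo1* was again among those higher. Between the non-otic groups, periotic tissue was lower for 6 forkhead probes (10.2%, against 2.95% of all probes) and higher for none (against 2.86%) by limma, while 5 were higher at an unadjusted p under 0.05 and 1 was called higher with neqc. These 6 calls compare with 5.81% of all probes called in either direction. Of them, 5 were at least 1.5-fold (8.47%, against 2.67%), and the arrays did not overlap for 15 probes (25.4%, against 19.8%). The median log2 difference over the 59 probes was -0.063 for OV minus embryo-minus-otic, -0.013 for OV minus periotic and -0.029 for periotic minus embryo-minus-otic, while the medians of all probes were 0.0043, -3.7e-05 and 0.0066.

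**Figure D1:**
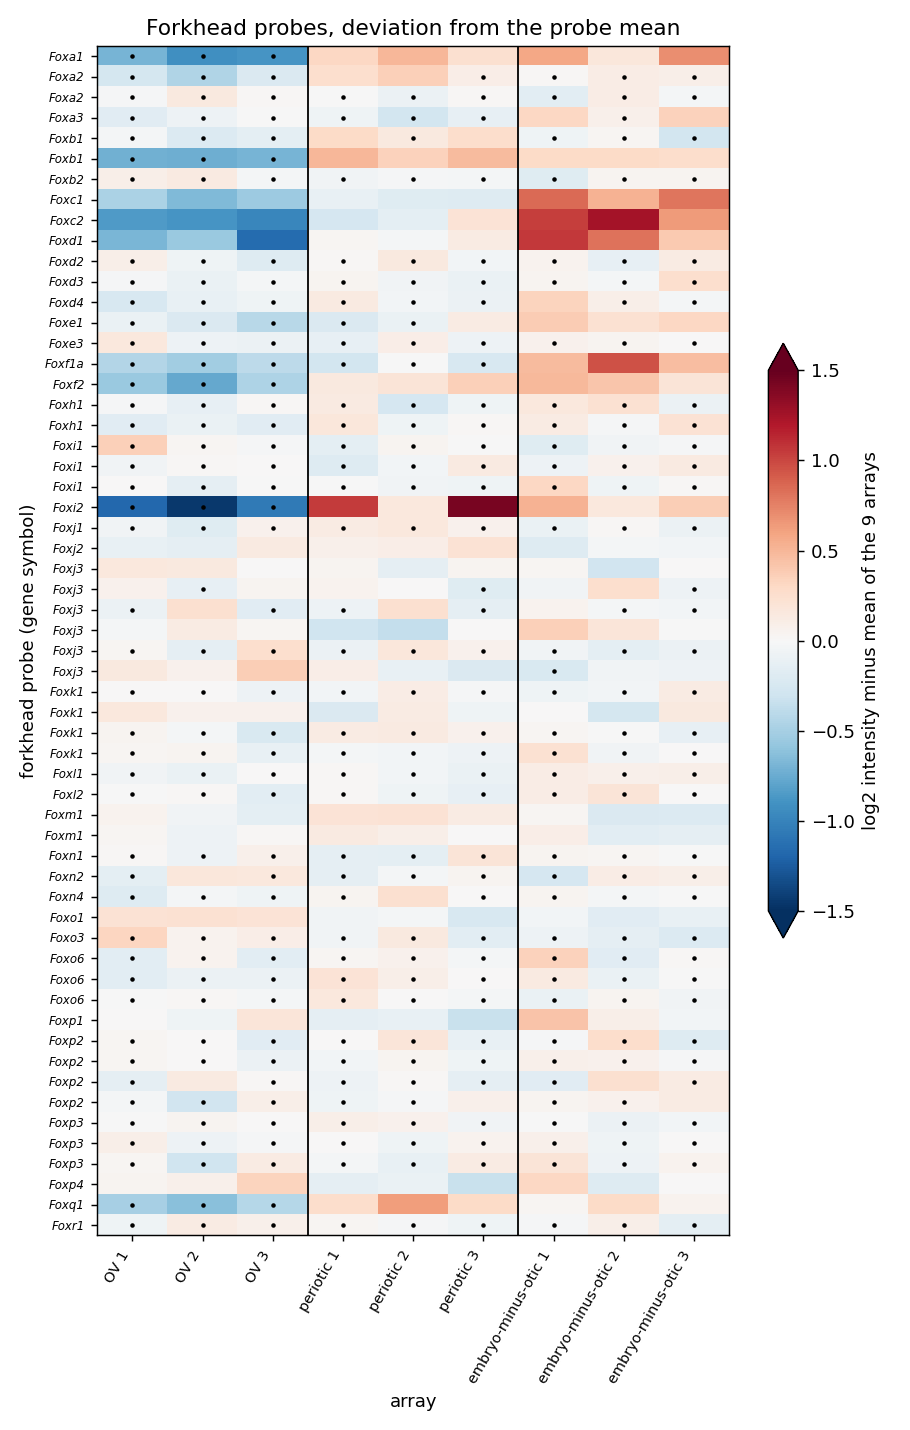
Forkhead probes (rows, by gene symbol) on the 9 arrays (columns), coloured by log2 intensity minus the probe's mean over the 9 arrays, with the colour scale ending at 1.5 in either direction. A dot marks an array that was not above background. In the 3 OV columns *Foxa1*, *Foxc1*, *Foxc2*, *Foxd1*, *Foxf1a*, *Foxf2*, *Foxi2*, *Foxq1* and 1 *Foxb1* probe are blue, and most other rows are pale and dotted throughout.

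*Foxi2*, which belongs to the subfamily of the otic and pharyngeal ectoderm, was lower in OV than in both other tissues. It is known from the cranial ectoderm beside the otic placode. The OV arrays read 6.05, 5.78 and 6.17, and none was above background. The periotic arrays read 8.28, 7.39 and 8.65, and the embryo-minus-otic arrays 7.75, 7.38 and 7.59. All 6 non-otic arrays lay above all OV arrays. By the group means, OV was at least 3.74-fold lower than periotic tissue (*q* = 6.78e-06) and at least 2.59-fold lower than embryo-minus-otic tissue (*q* = 0.000142). The 95% intervals of the fitted log2 differences, before adjustment, were -2.58 to -1.63 and -2.05 to -1.09 in that order. Both include changes smaller than the minimum given.

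The non-otic groups overlapped in *Foxi2*. The log2 difference of periotic minus embryo-minus-otic tissue was 0.53, with a 95% interval from 0.05 to 1.01 before adjustment and *q* = 0.243. Replicate 2 was the lowest array in each of the 3 groups, and the labels do not tie replicate numbers to litters. With periotic replicate 2 alone left out, the difference was 0.89 (*q* = 0.00177). The related *Foxi1*, needed in the epithelium of the endolymphatic duct and sac, had 3 probes, and none was above background on any array. *Foxi3*, which acts in formation of the otic placode, has no probe under the naming rule.

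The 250 bases before the start of the gene were read for the members. Windows are from RefSeq on build GRCm38.p6, and the deposited annotation names no build. Of the 38 genes, 24 had windows in the table, 29 windows in all, and *Foxc2*, *Foxq1*, *Foxf1* and *Foxb1* had none. *Foxi2* is shown because its window was poor in CG dinucleotides (capitals), with 3 of them. Of all 32851 windows, 71.0% held as many or more. It lies on the plus strand at chr7:135410117-135410366.

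Foxi2: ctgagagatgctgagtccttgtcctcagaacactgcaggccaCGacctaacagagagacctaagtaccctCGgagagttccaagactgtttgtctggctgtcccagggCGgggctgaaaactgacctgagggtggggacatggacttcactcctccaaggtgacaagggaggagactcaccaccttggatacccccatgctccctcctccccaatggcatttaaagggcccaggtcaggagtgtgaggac

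*Foxf2* and *Foxc1* are shown because they are neighbours on chromosome 13 and were both called lower in OV. Their windows lie on the plus strand at chr13:31625566-31625815 and chr13:31806396-31806645. The *Foxf2* window held 21 CG dinucleotides and the *Foxc1* window 29 (capitals), numbers reached by 16.3% and 6.78% of all windows. The median was 16 CG over the forkhead windows and 6 over all windows, and the median GC content was 62.0% and 52.4%.

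Foxf2: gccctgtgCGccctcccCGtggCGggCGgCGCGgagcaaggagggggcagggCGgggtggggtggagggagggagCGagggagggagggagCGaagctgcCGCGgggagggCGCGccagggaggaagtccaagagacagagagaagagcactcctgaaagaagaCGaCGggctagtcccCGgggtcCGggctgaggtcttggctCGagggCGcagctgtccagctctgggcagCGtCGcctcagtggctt
Foxc1: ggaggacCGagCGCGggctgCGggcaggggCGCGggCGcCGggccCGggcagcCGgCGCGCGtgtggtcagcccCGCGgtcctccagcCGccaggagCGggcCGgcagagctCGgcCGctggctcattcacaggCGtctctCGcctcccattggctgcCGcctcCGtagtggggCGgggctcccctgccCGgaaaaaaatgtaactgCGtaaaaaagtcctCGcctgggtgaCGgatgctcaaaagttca

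The mesenchymal members *Foxc1*, *Foxc2*, *Foxd1*, *Foxf1a* and *Foxf2* were lower in OV than in embryo-minus-otic tissue. *Foxc1* and *Foxc2* act in paraxial and cranial mesenchyme and in vessels. *Foxc1* read 7.51, 7.32 and 7.44 in OV, 7.87, 7.80 and 7.79 in periotic tissue, against 8.84, 8.51 and 8.79 in embryo-minus-otic tissue. *Foxc2* read 7.56, 7.52 and 7.43 in OV, 8.15, 8.26 and 8.61 in periotic tissue, against 9.44, 9.65 and 9.05 in embryo-minus-otic tissue. Both genes were above background on every array, in the order OV, periotic, embryo-minus-otic, with no overlap between neighbouring groups. Against embryo-minus-otic tissue, OV was 2.44-fold lower for *Foxc1* (log2 difference -1.29, SE 0.099, *q* = 1.91e-07) and 3.68-fold lower for *Foxc2* (-1.88, SE 0.14, *q* = 1.4e-07). Against periotic tissue, OV was 1.32-fold lower for *Foxc1* (*q* = 0.0154) and 1.79-fold lower for *Foxc2* (*q* = 0.000665). Periotic tissue was in turn lower than embryo-minus-otic tissue by 1.85-fold for *Foxc1* (*q* = 2.53e-05) and 2.06-fold for *Foxc2* (*q* = 0.000169). The *Foxc1* difference from periotic tissue was not called without OV replicate 2 (*q* = 0.0844), without periotic replicate 1 (*q* = 0.0709) or without normalization (*q* = 0.178), and the *Foxc2* difference between non-otic groups was not called with median normalization (*q* = 0.0768).

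*Foxd1*, known from kidney stroma and ventral forebrain, read 8.01, 8.13 and 7.54 in OV, 8.72, 8.66 and 8.81 in periotic tissue, against 9.75, 9.51 and 9.08 in embryo-minus-otic tissue. The groups stood in the same order as for the Foxc genes and did not overlap. OV was 2.94-fold lower than embryo-minus-otic tissue (log2 difference -1.55, SE 0.16, *q* = 4.46e-06) and 1.79-fold lower than periotic tissue (*q* = 0.00192). Periotic tissue was 1.64-fold lower than embryo-minus-otic tissue (*q* = 0.0117). That last call was lost with neqc (*q* = 0.0734), with median (*q* = 0.272) or no normalization (*q* = 0.0631), and without embryo-minus-otic replicate 1 (*q* = 0.0607), periotic replicate 1 (*q* = 0.0514) or periotic replicate 2 (*q* = 0.0558).

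*Foxf1a* (*Foxf1* in RefSeq) and *Foxf2* act in mesoderm around the gut and in facial mesenchyme. *Foxf1a* read 5.73, 5.65 and 5.78 in OV, 5.89, 6.16 and 5.93 in periotic tissue, against 6.64, 7.13 and 6.63 in embryo-minus-otic tissue. It was above background only in the embryo-minus-otic pools, which lay above all 6 other arrays. In OV the level was at least 1.52-fold lower than in those pools (*q* = 1.61e-05), and in periotic tissue at least 1.53-fold lower (*q* = 0.000639). Between OV and periotic tissue, both below background, *q* was 0.241. *Foxf2* read 5.88, 5.67 and 5.98 in OV, 6.59, 6.63 and 6.79 in periotic tissue, against 6.92, 6.85 and 6.63 in embryo-minus-otic tissue. Here the periotic arrays were above background and overlapped those of embryo-minus-otic tissue (log2 difference -0.13, 95% interval -0.36 to 0.1, *q* = 0.653). OV was at least 1.52-fold lower than embryo-minus-otic tissue (*q* = 1.07e-05) and at least 1.39-fold lower than periotic tissue (*q* = 4.73e-05).

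*Foxq1*, known from the hair shaft and the stomach lining, stands beside *Foxf2* and *Foxc1* on chromosome 13. No other protein-coding gene lies between *Foxq1* and *Foxf2* or between *Foxf2* and *Foxc1* in the RefSeq table. *Foxq1* read 5.93, 5.80 and 5.99 in OV, 6.69, 7.05 and 6.71 in periotic tissue, against 6.45, 6.71 and 6.47 in embryo-minus-otic tissue. All non-otic arrays lay above the OV arrays, none of which was above background. In OV the level was at least 1.53-fold lower than in periotic tissue (*q* = 3.05e-05) and at least 1.27-fold lower than in embryo-minus-otic tissue (*q* = 0.001). The non-otic groups overlapped (log2 difference 0.27, 95% interval 0.04 to 0.51 before adjustment, *q* = 0.217).

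Each gene of the chromosome 13 cluster was lower in OV than in both other tissues. They parted between the non-otic groups, where *Foxc1* was lower in periotic tissue and *Foxf2* and *Foxq1* were not called. A second cluster on chromosome 8 holds *Foxf1*, *Foxc2* and *Foxl1*, with 1 gene between the first pair and none between the second. For *Foxf1a* and *Foxc2*, both OV and periotic tissue were lower than embryo-minus-otic tissue, while *Foxl1* was above background on no array.

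Most mesenchyme markers were also lower in OV than in embryo-minus-otic tissue, but few were called between OV and periotic tissue. Of 19 mesenchyme and cranial neural crest probes (14 of 16 genes), 14 were lower in OV than in embryo-minus-otic tissue, 13 were lower in periotic than in embryo-minus-otic tissue, and 1 was lower in OV than in periotic tissue. The receptor gene *Pdgfra* had a log2 difference of -1.28 for OV minus embryo-minus-otic tissue (SE 0.11, *q* = 9.55e-07). *Twist1*, a mesenchymal transcription factor, was at -0.89 (SE 0.11, *q* = 2.12e-05) in that comparison and at -0.01 (*q* = 0.99) for OV minus periotic tissue. *Sox9*, the 1 probe of the list that was higher in OV than in either tissue, is also an otic gene. The summed intensity of the list was 3160 to 3360 in OV, 2490 to 2910 in periotic tissue and 5000 to 5830 in embryo-minus-otic tissue, and 3 of its probes were above background on no array. Without *Sox9*, left out after its values were seen, the sum was 2180 to 2430 in OV, 2260 to 2670 in periotic tissue and 4760 to 5660 in embryo-minus-otic tissue, so that OV and periotic tissue overlapped.

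The list and most of these genes differed in the periotic comparison. The list's median log2 difference was -0.88 for OV minus embryo-minus-otic tissue and -0.058 for OV minus periotic tissue. In the latter comparison *Foxc2* and *Foxd1* were both at -0.84 and *Foxc1* at -0.4. *Foxf2* was called lower in OV there, while *Foxf1a* was below background in both groups and not called. Somite markers were lower in OV than in embryo-minus-otic tissue for 4 of 11 probes (9 of 10 genes), lower than in periotic tissue for 2, and lower in periotic than in embryo-minus-otic tissue for 4. Their summed intensity was 638 to 667 in OV, 681 to 730 in periotic tissue and 961 to 1010 in embryo-minus-otic tissue, with 6 probes above background on no array. The part of mesenchyme and somite content in the levels of the forkhead genes was not tested.

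**Figure D2:**
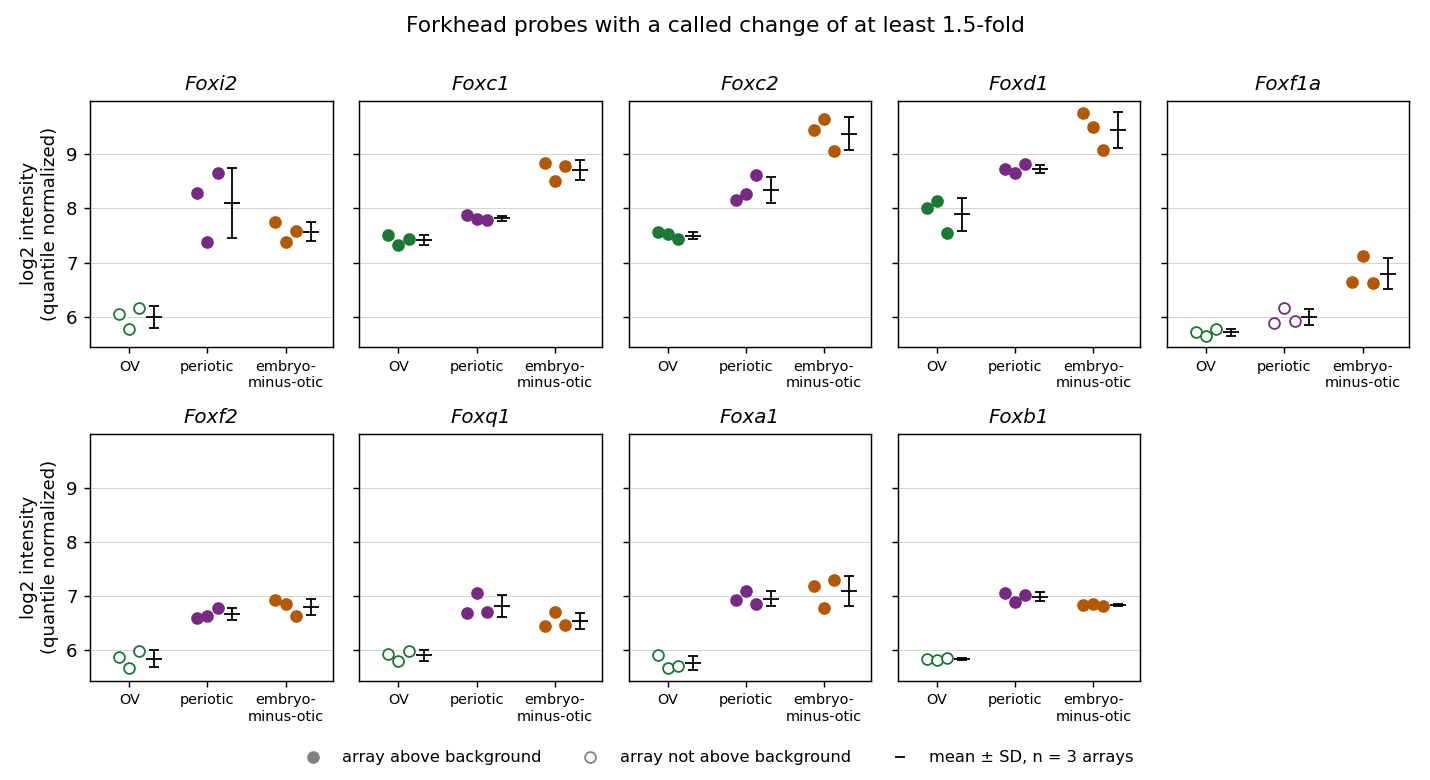
Log2 intensity of 9 forkhead probes with a called change of at least 1.5-fold, by tissue. Each circle is 1 array, filled where the probe was above background, and the bars give the mean ± SD of 3 arrays. *Foxc1*, *Foxc2* and *Foxd1* rise in steps from OV to embryo-minus-otic tissue, and the OV circles are open for *Foxi2*, *Foxf1a*, *Foxf2*, *Foxq1*, *Foxa1* and *Foxb1*.

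The Foxa genes, pioneer factors of the endoderm and of the floor plate of the neural tube, were represented by 4 probes. *Foxa1* read 5.91, 5.68 and 5.72 in OV, with no array above background. It read 6.92, 7.10 and 6.85 in periotic tissue and 7.19, 6.78 and 7.30 in embryo-minus-otic tissue. The non-otic groups overlapped (log2 difference -0.14, 95% interval -0.4 to 0.13, *q* = 0.707) and both lay above OV. OV was at least 1.85-fold lower than embryo-minus-otic tissue (*q* = 1.97e-06) and at least 1.69-fold lower than periotic tissue (*q* = 6.04e-06).

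Its window is shown because it was the 1 forkhead window of 29 (3.45%, against 3.17% of all windows) with the core motif TGTTTAC, searched on both strands. The variant TGTTTGC was found in 2 windows (6.9%, against 4.3%), those of *Foxj3* and *Foxp1*, and TATAAA in 3 (10.3%, against 12.4%), those of *Foxa2*, *Foxa3* and *Foxp3*. The motifs do not overlap. The window lies on the minus strand at chr12:57546112-57546361, and the capitals mark the reverse complement of the motif, GTAAACA.

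Foxa1: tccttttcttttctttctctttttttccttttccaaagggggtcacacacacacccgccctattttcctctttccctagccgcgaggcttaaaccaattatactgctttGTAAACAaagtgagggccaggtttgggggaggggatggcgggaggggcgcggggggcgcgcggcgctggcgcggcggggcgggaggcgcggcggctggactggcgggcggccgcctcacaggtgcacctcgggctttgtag

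One *Foxa2* probe was above background on 2 periotic arrays and on no others, with 6.28, 6.38 and 6.12 in periotic tissue, 5.76, 5.57 and 5.81 in OV and 6.04, 6.13 and 6.11 in embryo-minus-otic tissue. In OV the level was at least 1.04-fold lower than in periotic tissue (*q* = 0.00098), a call lost without normalization (*q* = 0.0748). OV was also called lower than embryo-minus-otic tissue (*q* = 0.0163), but both groups were below background there. That call was lost without embryo-minus-otic replicate 2 (*q* = 0.0531), without OV replicate 2 (*q* = 0.0883) and without normalization (*q* = 0.12). The second *Foxa2* probe was above background on no array.

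*Foxa3*, a liver factor, was above background on 2 embryo-minus-otic arrays and on no others. It read 6.44, 6.20 and 6.47 there, 5.96, 6.05 and 6.12 in OV and 6.06, 5.85 and 6.01 in periotic tissue. OV was at least 1.12-fold lower than embryo-minus-otic tissue (*q* = 0.0447) and periotic tissue at least 1.14-fold lower (*q* = 0.0243). The first call was lost in 10 of the alternatives, without each OV replicate among them (*q* from 0.0602 to 0.165), and without embryo-minus-otic replicate 1 (*q* = 0.122) or 3 (*q* = 0.153) and periotic replicate 1 (*q* = 0.0554) or 3 (*q* = 0.0561). The second call was lost in 6, without embryo-minus-otic replicate 1 (*q* = 0.0842) or 3 (*q* = 0.0933) and periotic replicate 2 (*q* = 0.134) or 3 (*q* = 0.0501) among them.

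*Foxe1*, needed for the thyroid and the foregut, was above background on all 3 embryo-minus-otic arrays, on 1 periotic array and on no OV array. It read 6.46, 6.30 and 6.39 in embryo-minus-otic tissue, 5.86, 5.98 and 6.20 in periotic tissue and 5.98, 5.86 and 5.66 in OV. In OV the level was at least 1.13-fold lower than in embryo-minus-otic tissue (*q* = 0.00238). The difference of periotic from embryo-minus-otic tissue missed the threshold (log2 difference -0.37, 95% interval -0.6 to -0.14 before adjustment, *q* = 0.0583).

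Most probes of the endoderm and liver list were lower in OV than in embryo-minus-otic tissue, though not all its genes are limited to endoderm. Of 13 endoderm and liver probes (11 of 14 genes), 9 were lower in OV than in embryo-minus-otic tissue, 4 lower in OV than in periotic tissue, and 5 lower in periotic than in embryo-minus-otic tissue. Their summed intensity was 779 to 862 in OV, 1090 to 1190 in periotic tissue and 2030 to 2280 in embryo-minus-otic tissue, and 2 probes were above background on no array. The 4 probes that were lower in OV than in periotic tissue were those of *Shh*, the hedgehog ligand made by floor plate, notochord and endoderm, and *Sox17*, an endoderm factor also expressed in endothelium. One *Shh* probe (ILMN_2610013) was above background on all non-otic arrays and on no OV array, at least 3.92-fold lower than in periotic tissue (*q* = 1.14e-08) and at least 4.16-fold lower than in embryo-minus-otic tissue (*q* = 8.68e-09). Like *Foxa1*, it was not called between the non-otic groups (*q* = 0.859). *Afp*, a liver gene, was above background in embryo-minus-otic tissue but on no periotic and no OV array. The part of endoderm or floor plate in the *Foxa1* level was not tested.

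*Foxb1*, a gene of the neural tube and hypothalamus, had 2 probes. The first (ILMN_2770246) read 5.84, 5.83 and 5.86 in OV, 7.05, 6.90 and 7.03 in periotic tissue, against 6.84, 6.85 and 6.82 in embryo-minus-otic tissue. The OV arrays were below background and the non-otic arrays all above it. OV was at least 1.73-fold lower than periotic tissue (*q* = 6.5e-08) and at least 1.55-fold lower than embryo-minus-otic tissue (*q* = 4.02e-07). Between the non-otic groups the arrays did not overlap, but the log2 difference of 0.16 was not called (95% interval -0.01 to 0.33, *q* = 0.373). The second (ILMN_2955351) was above background on 2 periotic arrays and on no others. It read 6.25, 6.10 and 6.22 in periotic tissue, 5.93, 5.75 and 5.81 in OV and 5.89, 5.99 and 5.68 in embryo-minus-otic tissue. It was called lower in OV than in periotic tissue (*q* = 0.0249) but not in the other comparisons. No minimum fold Δ is given, since the periotic mean did not exceed the mean of the dimmest values above background on the OV arrays. The call was lost without OV replicate 2 (*q* = 0.111) or 3 (*q* = 0.0784), without periotic replicate 1 (*q* = 0.104) or 3 (*q* = 0.0798), and with median (*q* = 0.0703) or no normalization (*q* = 0.525).

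Hindbrain markers were lower in OV for 11 of 16 probes (14 of 14 genes) against periotic tissue and for 9 against embryo-minus-otic tissue, with 1 higher in the latter, *Irx3*. Their summed intensity was 9760 to 11100 in periotic tissue, 4780 to 5450 in embryo-minus-otic tissue and 3700 to 4330 in OV, and 3 probes were above background on no array. The part of neural tissue in the *Foxb1* level was not tested.

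**Figure D3:**
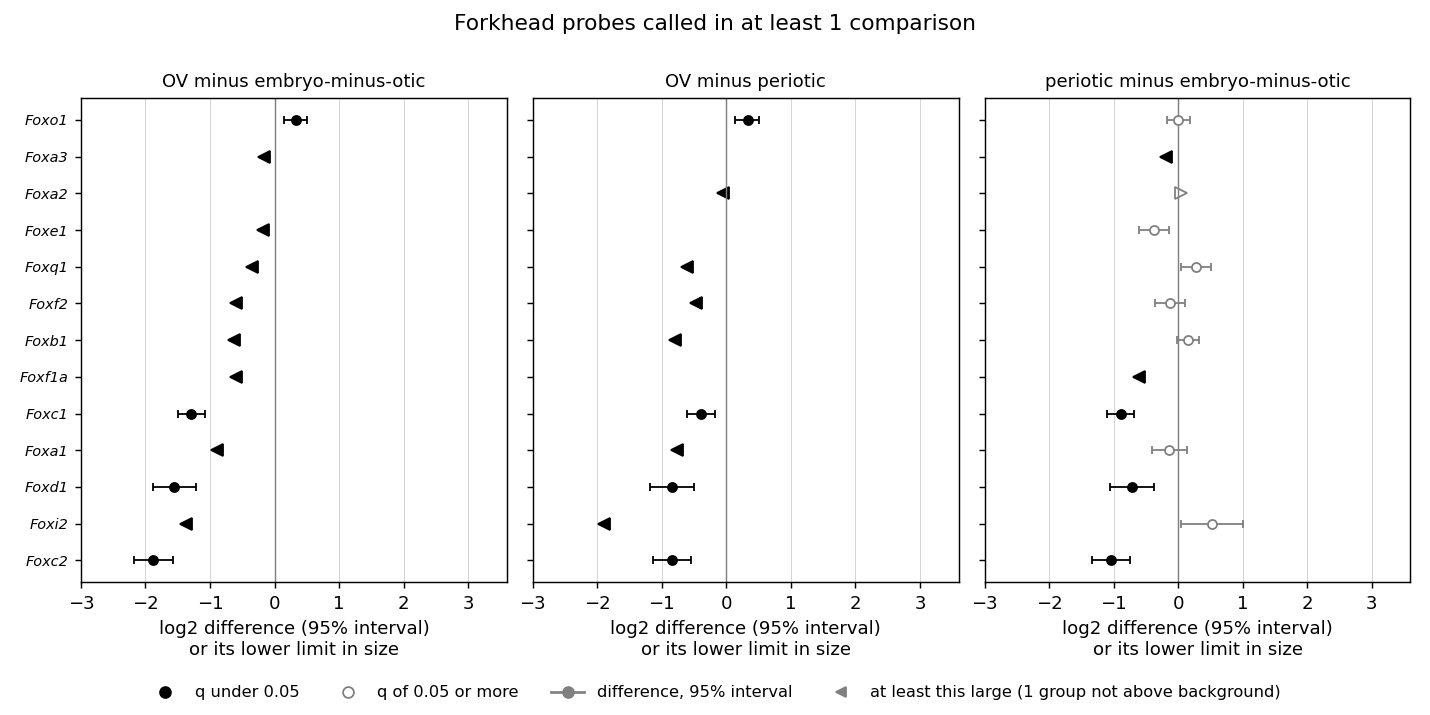
Log2 differences of 13 forkhead probes called in at least 1 comparison, for OV minus embryo-minus-otic, OV minus periotic and periotic minus embryo-minus-otic. Circles give the fitted difference with its 95% interval. Triangles give the minimum difference of means, without the spread between arrays, where 1 group had no array above background. No mark is drawn where neither could be given. Filled marks have *q* under 0.05. Of the probes drawn, only *Foxo1* lies right of 0 with filled marks, and in the right panel every filled mark lies left of 0.

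Among the members known from most tissues, *Foxo1* alone was called. *Foxo1*, which insulin and PI3K signalling keep out of the nucleus, was called higher in OV than in either other tissue. It read 7.27, 7.29 and 7.26 in OV, 7.0, 7.03 and 6.82 in periotic tissue, against 7.01, 6.89 and 6.94 in embryo-minus-otic tissue. The OV arrays lay above all others. The fold Δ was 1.25 against either tissue (log2 difference 0.33, SE 0.086, *q* = 0.0203 against embryo-minus-otic and 0.0217 against periotic tissue). Each call was lost in 7 alternatives. Against embryo-minus-otic tissue it was lost without each OV replicate in turn (*q* from 0.0533 to 0.0675) and without embryo-minus-otic replicate 2 (*q* = 0.0691) or 3 (*q* = 0.0526), without normalization (*q* = 0.759) and with an intensity trend (*q* = 0.0519). Against periotic tissue it was lost without each OV replicate (*q* from 0.0574 to 0.074), without periotic replicate 3 (*q* = 0.113), with median (*q* = 0.0954) or no normalization (*q* = 0.871) and with an intensity trend (*q* = 0.0575).

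Genes of the insulin and FOXO pathway were read from 38 probes for 25 of 26 listed genes. Against embryo-minus-otic tissue, 6 probes were higher in OV and 2 lower, and against periotic tissue 9 were higher and 1 lower. Both probes of *Pik3r1*, the regulatory subunit of PI3K, that were above background were higher in OV, with fold Δ of 1.83 and 1.74 against embryo-minus-otic tissue (*q* = 1.38e-05 and 2.29e-05) and 1.99 and 1.96 against periotic tissue (*q* = 3.43e-06 and 2.56e-06). *Sesn3*, a stress response gene, was higher than in periotic tissue at its 1 probe (*q* = 0.0206). *Gadd45a*, another stress response gene, was higher than in periotic tissue at 1 of 2 probes (*q* = 0.00995, against 0.119 at the other). *Bcl2l11*, a cell death gene, was higher than in embryo-minus-otic tissue at 1 of 4 probes (*q* = 0.00603), while the others had *q* of 0.292, 0.976 and 0.777. *Irs2*, an insulin receptor substrate, was 1.73-fold higher (*q* = 0.0008) and 1.97-fold higher (*q* = 0.000102). *Fbxo32*, a FOXO target that encodes a ubiquitin ligase subunit, was 1.92-fold higher (*q* = 3.87e-06) and 2.31-fold higher (*q* = 2.11e-07) at 1 of its 3 probes (ILMN_2873444). All 3 of its probes were higher in OV than in periotic tissue and 2 were higher than in embryo-minus-otic tissue. *Sgk*, a kinase gene, and *Sesn1* were the 2 lower in OV than in embryo-minus-otic tissue. Between the non-otic groups, 2 probes, the same *Bcl2l11* probe among them, were higher in periotic tissue and none was lower. The list's medians were 0.092, 0.019 and -0.077 (log2) in the order OV minus embryo-minus-otic, OV minus periotic and periotic minus embryo-minus-otic, and 13 of its probes were above background on no array. *Foxo3* and *Foxo6* were above background on no array.

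*Foxm1*, which drives genes of mitosis, had 2 probes above background on every array and called nowhere. The first read a mean of 8.392 ± 0.102 in OV, 8.627 ± 0.0566 in periotic tissue and 8.316 ± 0.136 in embryo-minus-otic tissue (SD, n = 3 arrays), and the second 8.395 ± 0.0583, 8.482 ± 0.0631 and 8.34 ± 0.136. For OV minus embryo-minus-otic tissue the 95% intervals were -0.12 to 0.28 and -0.14 to 0.25. The nearest to a call was the first probe between the non-otic groups (*q* = 0.073), which was called higher in periotic tissue with median normalization. Of 23 probes for 13 of 16 cell cycle genes that FOXM1 is known to control, 1 was higher in OV than in embryo-minus-otic tissue, and 1 was higher and 1 lower in OV than in periotic tissue. The higher one was 1 of 4 probes of *Cdc20*, an activator of the anaphase-promoting complex (ILMN_2612206), with fold Δ of 1.27 (*q* = 0.0244) and 1.33 (*q* = 0.00962). The other *Cdc20* probes had log2 differences of -0.44, 0.16 and -0.11 from embryo-minus-otic tissue (*q* = 0.197, 0.506 and 0.53) and of -0.20, 0.29 and 0.08 from periotic tissue (*q* = 0.694, 0.144 and 0.717). The lower one was the phosphatase gene *Cdc25b*, with a log2 difference of -0.5 (*q* = 0.00269). By limma none of the 23 was called between the non-otic groups, where 2 were higher and 1 lower in periotic tissue at an unadjusted p under 0.05, and neqc also called none. The list's medians were -0.016, -0.097 and 0.058 (log2) in the order OV minus embryo-minus-otic, OV minus periotic and periotic minus embryo-minus-otic. Its summed intensity was 29500 to 29800 in OV, 29700 to 30300 in periotic tissue and 28800 to 30500 in embryo-minus-otic tissue.

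In all, 9 probes of 6 genes passed on every array of a group and were called in no comparison. Besides *Foxm1* these were *Foxj2*, *Foxj3*, *Foxk1*, *Foxp1* and *Foxp4*, which are expressed in many tissues, with levels from 6.13 to 9.34. For OV minus embryo-minus-otic tissue their log2 differences ran from -0.14 to 0.31 (lowest *q* = 0.0762, at the *Foxj3* probe ILMN_2688740). They ran from -0.23 to 0.34 for OV minus periotic tissue (lowest *q* = 0.11, at *Foxp4*) and from -0.4 to 0.31 for periotic minus embryo-minus-otic tissue. The nearest to a call was *Foxj3* probe ILMN_2650040 in that last comparison (log2 difference -0.4, *q* = 0.0534). This probe, 1 of 6 for *Foxj3*, had means of 9.019 ± 0.0767 in OV, 8.76 ± 0.193 in periotic tissue and 9.16 ± 0.186 in embryo-minus-otic tissue. *Foxp1* had means of 7.195 ± 0.13, 6.962 ± 0.128 and 7.311 ± 0.242, and *Foxp4* of 6.672 ± 0.159, 6.327 ± 0.129 and 6.558 ± 0.251, all as SD over 3 arrays. None of these probes passed the threshold, which does not show that the tissues were equal.

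The rest of the family was near or below background. Of the 59 probes, 28 (47.5%) were above background on no array, with values from 5.44 to 6.19, and 10 were above background on some arrays but on every array of no group. No probe above background was found for 14 genes: *Foxb2*, *Foxd2*, *Foxd3*, *Foxe3*, *Foxh1*, *Foxi1*, *Foxj1*, *Foxl1*, *Foxl2*, *Foxn1*, *Foxo3*, *Foxo6*, *Foxp3* and *Foxr1*. Among them are factors of later or distant tissues, such as *Foxp3* of regulatory T cells, *Foxn1* of the thymus and *Foxl2* of the ovary, and *Foxd3*, an early neural crest factor. By limma none of the 28 was called in any comparison, and neqc called none. At an unadjusted p under 0.05, 1 was higher and 1 lower in OV minus embryo-minus-otic tissue, 1 lower in OV minus periotic tissue and 0 in the third comparison, and their lowest *q* was 0.0804, for *Foxo3* in OV minus embryo-minus-otic tissue. On the whole, 21 of 59 probes of 18 genes (35.6%, against 46.1% of all probes) passed on all 3 arrays of 1 group or more. At this signal a probe below background has only an upper bound and may still belong to an expressed gene.

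*Foxj1*, the main factor for motile cilia, was below background on all 9 arrays. Of 19 probes for 12 of 23 listed motile cilium genes, 12 were above background on no array. The 1 called gene was *Rfx2*, a partner factor of ciliogenesis, which was lower in OV with log2 differences of -0.56 against embryo-minus-otic tissue (*q* = 0.00137) and -1.44 against periotic tissue (*q* = 6.42e-08). It was higher in periotic than in embryo-minus-otic tissue by 0.88 (*q* = 3.62e-05).

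The marker lists for other sites of the embryo give the setting of the embryo-minus-otic levels. Of 9 forebrain marker probes (9 of 11 genes), 2 were lower in OV than in embryo-minus-otic tissue, 2 were higher in OV than in periotic tissue and 4 were lower in periotic than in embryo-minus-otic tissue. Their summed intensity was 1390 to 1470 in embryo-minus-otic tissue, 627 to 729 in periotic tissue and 768 to 859 in OV. Of 15 limb and posterior body probes, 6 were lower in OV than in embryo-minus-otic tissue and 1 was higher than in periotic tissue, and 6 were lower in periotic tissue. Of 9 heart muscle probes, 8 were lower in OV and 8 in periotic tissue than in embryo-minus-otic tissue, and limma called none between OV and periotic tissue (1 higher in OV at an unadjusted p under 0.05, none called with neqc). Of 12 endothelium and blood probes, 6 were lower in OV than in embryo-minus-otic tissue, 5 lower than in periotic tissue and by limma none called between the non-otic groups (3 lower in periotic tissue at an unadjusted p under 0.05, none called with neqc). Without OV replicate 1, the OV pool with heart muscle signal, 12 forkhead probes were called against embryo-minus-otic tissue (20.3%, against 9.36% of all probes) and 11 against periotic tissue (18.6%, against 8.8%).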

How the data were processed

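RNA from 9 pools was labelled with biotin and hybridized to MouseRef-8 v2.0 BeadChips of 1 colour. What the authors deposited was the average signal of GenomeStudio, an intensity not normalized between arrays. They also deposited a detection p-value per probe and array, which ranks the signal against negative control beads. Whether background was subtracted, and which slide held which array, is not given in the sources used here. The number of arrays limits the precision.

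Signals were log2 transformed (values under 1 set to 1, which changed 0 values) and quantile normalized over the 9 arrays. The study's methods name these steps too, for these arrays together with arrays of neonatal cochlear cells, which were not analysed. One linear model of the 3 groups was fitted to all 25697 probes in limma 3.58.1 (R 4.3.3) and moderated by empirical Bayes. Benjamini-Hochberg adjustment ran over all probes within a comparison, with a threshold of 0.05. The steps were tested on simulated data. Probes of a gene were kept apart.

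The members, marker lists and comparisons were chosen with earlier results of these data known, and no list was tested as a set. Array by array values were given for members above background on all arrays of a group and called at a change of 1.5-fold or more. *Foxo1*, *Foxe1*, *Foxa3*, 1 *Foxa2* probe and the dimmer *Foxb1* probe (ILMN_2955351) did not meet this rule and were added after their values were seen. One member and 1 gene of a listed pathway, though counted in the totals, are not reported here. Gene symbols are those of the array, and all 38 matched RefSeq, 1 through a synonym. Of 44 forkhead genes there, 6 have no probe under the rule and were not analysed here. Of these, 4 have an older symbol on the array that the rule does not take (*Foxn3*, *Foxo4*, *Foxr2* and *Foxs1*), while *Foxi3* and *Foxk2* do not. The alternatives were neqc (offset 16), median or no normalization, no dim probes, 2 groups at a time, an intensity trend in eBayes, a block for the replicate number, each array left out, and a detection p of 0.05.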

Additional observations from a re-analysis of the deposited data

How the results depend on the processing

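The number of forkhead probes called stayed within 1.5 times its value in every alternative run. With an array left out it was 11 to 14 for OV against embryo-minus-otic tissue (14 with all arrays), 9 to 13 for OV against periotic tissue (12) and 5 to 7 between the non-otic groups (6), while all probes called ran from 2186 to 2964, 2061 to 2794 and 1004 to 1505. It was lowest without normalization, at 11, 8 and 4, and median normalization also gave 4 between the non-otic groups. Of those 4, 3 were lower in periotic tissue, and with neqc 6 of 7 were lower, against 6 of 6 in the main analysis. The added higher calls were *Foxm1* and the dimmer *Foxb1* probe. Among all probes, the calls without normalization were 1383, 1381 and 696, against 2930, 2625 and 1493. The alternatives were also read for 38 single-probe results. These were the called ones and the other comparisons of the probes that met the rule for array by array values. Gains of other probes, those of *Foxm1* and the dimmer *Foxb1* probe among them, were not counted here. For the 38 results, 551 values stayed on the same side of the threshold, while 50 lost a call and 2 gained one. No called value changed sign. Of 32 called results, 22 stayed called throughout. The 2 gains among the 38 results were *Foxi2* higher in periotic than in embryo-minus-otic tissue. They came without periotic replicate 2 (*q* = 0.00177) and with the replicate block (*q* = 0.0413). With the block, 14, 12 and 7 forkhead probes were called, and 3221, 2790 and 1669 of all probes. The replicate numbers were not taken as pairs, since the labels do not tie them to litters. The correlations of deviations of same-numbered arrays were low but all positive, from 0.007982 to 0.1824 over 9 pairs. Of the 9 arrays, 7 correlated best with their own number in both other groups, so that a pairing remains possible. A detection p under 0.05 raised the number of probes that passed on every array of a group from 21 to 30. The sizes also depended on the background step, and each called fold Δ was larger with neqc. Against embryo-minus-otic tissue it was 2.88 for *Foxc1* (2.44 in the main analysis) and 4.43 for *Foxc2* (3.68). For *Foxi2*, where only a minimum fold Δ is given above, the fitted ratio of periotic tissue to OV rose from 4.3 to 8.87. The causes of these shifts were not tested.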
